A study of Homo sapiens with 4 samples.

Results

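The comparison described here is that of RNA recovered with an antibody against RBM39 and the input RNA of the same cells, in Huh7 cells carrying a control short hairpin RNA (shControl). Its members are all features of the gene count table that reached 10 counts in 2 or more of the study's 4 libraries, which left 19210 of 56303 features. The study used RNA immunoprecipitation sequencing (RIP-seq), in which a protein is captured from a cell lysate with an antibody and the RNA that comes with it is sequenced beside a portion of the lysate's RNA, the input. Huh7 is an established human hepatocellular carcinoma line. The series title names alternative splicing of RFX1, and its design text asks which mRNAs RBM39 binds. The 4 groups were shControl input, shControl IP (the immunoprecipitate), shRBM39 input and shRBM39 IP, with 1 library each. The shRBM39 cells received a plasmid with a hairpin directed at RBM39, and no other treatment separates the cultures in the labels. The labels do not say whether the cells are 1 clone, and no library came from an IP with a control antibody, so recovery that depends on RBM39 and recovery that does not cannot be told apart. With 1 library a side there is no replicate check, no p-value and no standard deviation in what follows, and each interval is a 95% interval of counting error only.

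RBM39 is a nuclear RNA-binding protein with RNA recognition motifs and a stretch rich in arginine and serine, related to the splicing factor U2AF2. It is found with the U2 part of the spliceosome at early stages of intron recognition, and drugs of the indisulam type lead to its degradation. A RIP experiment does not report where on an RNA the protein sits: it gives only the relative abundance of each RNA in the captured fraction, and that abundance also holds carry-over from the lysate and RNA bound through other proteins.

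Depth was 20858382 counts for the input of shControl cells and 41387762 for their IP. The shRBM39 libraries, set beside these as the other culture, held 22249581 and 45812488 counts. All 10 hepatocyte markers, albumin and apolipoproteins among them, were detected, with a sum of 14676 CPM (library-scaled counts, with TMM factors) in the input and 9903 CPM in the IP. Of markers of other cells, all 4 erythroid genes were at 0, 2 of 6 fibroblast genes, 2 of 5 endothelial genes and 3 of 6 lymphocyte genes were at 0 in the input, and the myeloid sum of 412 CPM was carried by LYZ at 396 CPM. Other detected members in the input were COL1A2 (30.1 CPM), CD68 (14.6 CPM), PECAM1 (6.03 CPM) and CD3D (2.36 CPM). All 4 libraries are labelled as the Huh7 line, and in bulk lysates the source of such counts within a culture cannot be told. RBM39 mRNA, the target of the hairpin, had 8701 input counts (403 CPM) in shControl cells and 8053 (370 CPM) in the cells labelled shRBM39. In the IP it had 46798 counts (1035 CPM) and 91929 counts (2219 CPM), so the input value under the hairpin was little lower and the IP value was higher. With 1 library each, these values do not show a knockdown at the mRNA level, protein was not measured in these files, and shRBM39 is used throughout as the label of those libraries. The log2 ratio of IP over input for RBM39 was 1.36 (1.33 to 1.39) in shControl and 2.58 in shRBM39 cells. In shControl cells RFX1 had 70 and 319 counts, a log2 ratio of 1.11 (0.74 to 1.51). In shRBM39 cells it had 55 and 317 counts, a log2 ratio of 1.59 (1.18 to 2.04).

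A feature was called higher or lower in the IP when the scaled IP and input values differed 2-fold or more (1 in log2 units) and the interval of the ratio did not reach equality. By this rule 1479 features, 7.70% of those compared, were called higher and 2173, 11.3%, were called lower. The median log2 ratio over all compared features was -0.01, and the 10th and 90th percentiles were -1.11 and 0.95. Most features therefore lay within 2-fold of their input level. Past 4-fold there were 138 called higher and 515 called lower, and past 8-fold 62 and 224. The balance depends on the scaling: 40.5% of the called features were higher with TMM, and 50.2% with total count scaling. The filter admits features on the strength of the IP, since 1187 members had under 10 shControl input counts and 258 of these were called higher. Some features passed through the inputs alone, such as RBM44, with 16 and 32 input counts and 6 and 7 IP counts in shControl and shRBM39 cells. Just inside the filter stood 1243 features with exactly 2 libraries at 10 counts or more, and just outside it stood 1675 with 1 such library.

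**Figure D1:**
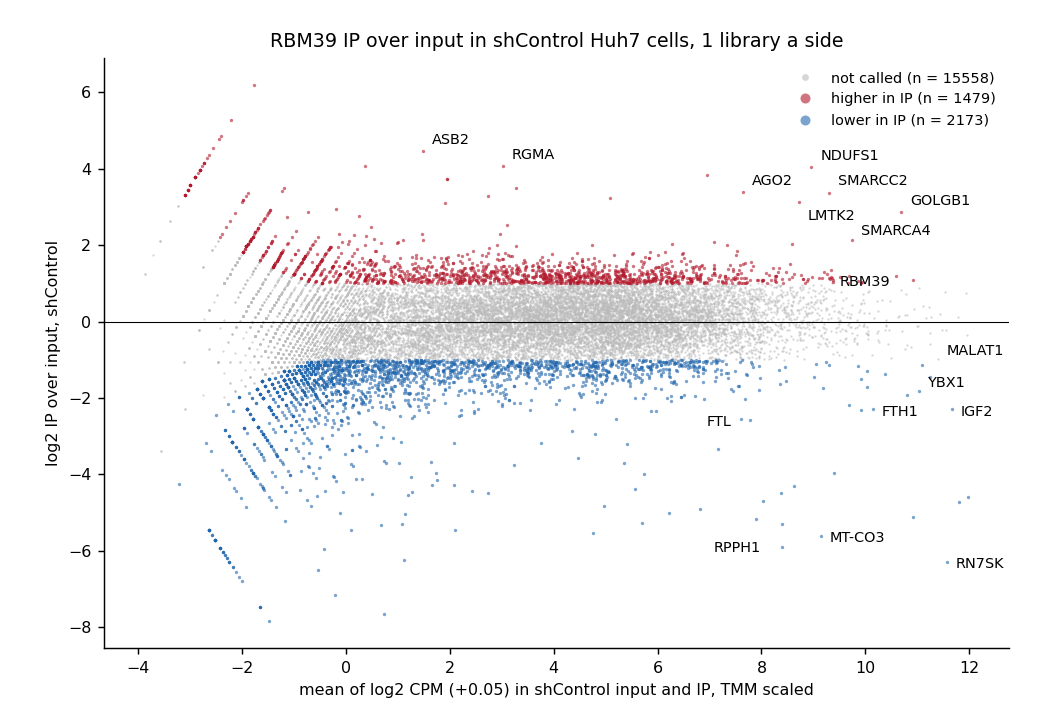
Log2 ratio of IP over input in shControl cells (vertical axis) against the mean log2 CPM of the same 2 libraries (horizontal axis), 1 point per compared feature, with called features in colour. The grey band of uncalled features spans the full range of levels, NDUFS1, SMARCC2 and GOLGB1 stand above it at high level, RN7SK and MT-CO3 stand below it, and the diagonal lines at the left are features with few counts.

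The classes of RNA had different medians. The 13555 nuclear protein-coding features had a median log2 ratio of 0.07, with 1113 called higher (8.21%) and 971 called lower (7.16%). Long non-coding RNAs lay below this, with a median of -0.28 over 902 features and 172 called lower. Pseudogenes had a median of -0.41 over 884 features, and 218 of them were called lower. Small non-coding RNAs had a median of -1.17 over 163 features, of which 83 were called lower and 5 higher. The 36 mitochondrially encoded features had a median of -4.09, and 34 of them were called lower. In library terms, protein-coding features took 82.7% of the counts of the input and 92.2% of those of the IP. Small non-coding RNAs took 7.16% and 0.271%, and mitochondrially encoded RNAs 2.96% and 0.254%.

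The highest coding features were a mixed group in function, and most of them held many counts in both libraries. Among features with at least 200 summed counts, the 25 ranked highest by the near bound of the counting interval had log2 ratios from 1.75 to 4.47, with a median of 2.13. NDUFS1, the largest subunit of respiratory complex I, had 2650 counts (123 CPM) in the input and 90962 counts (2011 CPM) in the IP, 16.4 times its input level (log2 4.03, 3.98 to 4.09). CEP152, a scaffold of centriole duplication, had 710 counts (32.9 CPM) and 21121 counts (467 CPM), 14.2 times the input (log2 3.83). These 2 genes also stood high in the other culture, at log2 4.12 and 4.53. The annotated gene of NDUFS1 on chromosome 2 (206114817 to 206159444 in RefSeq on GRCh38) contains GCSHP3, a pseudogene whose own ratio of 3.50 rests on 61 and 1454 counts.

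Single chromatin and RNA regulators were among the highest, though their gene lists, described below, were called higher at shares near or below those over all features. Called higher were 10 of 116 features of the chromatin lists (8.62%), 9 of 188 of the splicing lists (4.79%) and 1 of 12 of the RNA silencing list (8.33%). The shares were 7.70% over all features and 8.21% over coding ones. The single genes were as follows. SMARCC2, a core subunit of the SWI/SNF chromatin remodeller, went from 4225 counts (196 CPM) to 91819 counts (2030 CPM), a log2 ratio of 3.37 (3.33 to 3.42). SMARCA4, one of the ATPases of the same complex, went from 8820 counts (409 CPM) to 80755 counts (1786 CPM), a log2 ratio of 2.13. KDM4B, a histone demethylase, stood at 2.04, with 829 counts in the input and 7131 in the IP. SAMD1, a protein that binds unmethylated CpG DNA, stood at 2.08, with 1421 and 12627 counts. Among RNA regulators, AGO2, the slicing Argonaute of RNA interference, had 1325 counts (61.4 CPM) in the input and 29270 counts (647 CPM) in the IP, log2 3.40 (3.32 to 3.48). SF3B1, the largest protein of the SF3B part of the U2 particle, had 2106 counts (97.6 CPM) and 15766 counts (349 CPM), log2 1.84. MEX3D, an RNA-binding protein of the MEX3 family, stood at 1.80 on 534 and 3907 counts. All of these were called higher in the shRBM39 cells as well, with SF3B1 at 3.03 there and MEX3D at 1.50.

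The other well-counted genes of the 25 had varied roles. GOLGB1, the giant golgin giantin, had 13223 counts (613 CPM) in the input and 202198 counts (4471 CPM) in the IP, 7.29 times its input level (log2 2.87, 2.84 to 2.89). AKAP9, which anchors protein kinase A at the Golgi and centrosome, had 4137 and 35278 counts, log2 2.02, and LMTK2, a membrane-bound kinase, 3086 and 56363 counts, log2 3.12. The input levels of all 3 were thus well counted. JUND, a subunit of the AP-1 transcription factor, was at 1.99 on 1752 and 14616 counts. NR3C2, the mineralocorticoid receptor, was at 2.53 on 76 and 923 counts. CTDNEP1, a nuclear envelope phosphatase, was at 1.80 on 1044 and 7620 counts. CORO1B, an actin-binding coronin, was at 1.75, but its gene overlaps PTPRCAP, which had a like ratio, so their reads cannot be told apart.

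In 6 of the 25 the input held fewer than 100 counts, so their ratios are large but loosely set. ASB2, a substrate adaptor of a cullin ubiquitin ligase, had 12 counts in the input and 579 in the IP (log2 4.47, 3.71 to 5.49). RGMA, a repulsive guidance molecule of the cell surface, had 42 and 1488 counts (log2 4.06, 3.64 to 4.56). ATP13A5, a P-type ATPase, had 6 and 228 counts (log2 4.07, 3.04 to 5.64). With 4 input counts in shRBM39 cells, ATP13A5 passed the filter through the 2 IP libraries alone. The intervals of these 3 overlap that of NDUFS1, so their order is not set. PCDH20, a protocadherin, had 22 and 622 counts (log2 3.72), the same counts as the clone-named feature RP11-310K10.1. NYNRIN, at 26 and 270 counts, had a log2 ratio of 2.28, and its ratio in the shRBM39 cells was 0.22 (34 and 76 counts). It was the 1 gene of the 25 that was not called higher in both cultures.

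**Figure D2:**
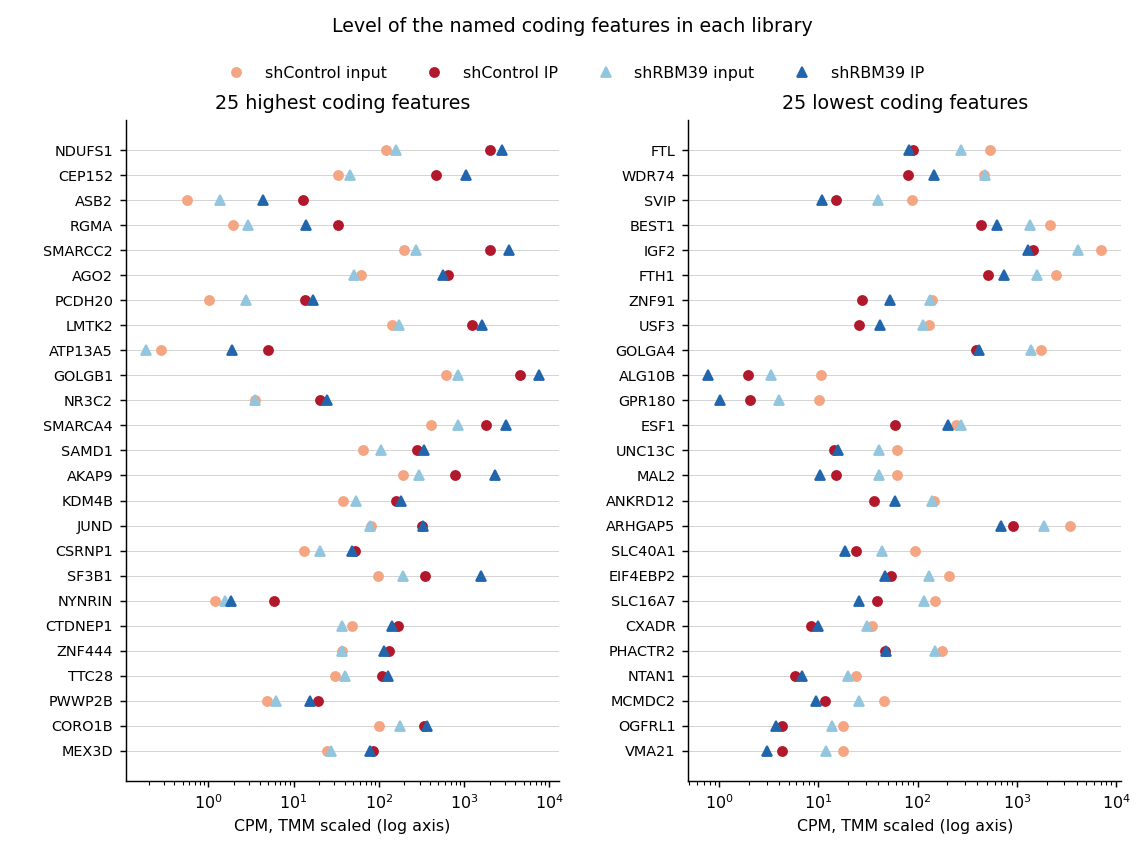
CPM after TMM scaling (log axis) of the 25 highest and the 25 lowest coding features in each of the 4 libraries, 1 point per library. Circles are shControl and triangles shRBM39, and in the left panel the IP points lie to the right of the inputs, by least for NYNRIN in shRBM39 cells.

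At the low end, iron storage genes, IGF2 and several genes of membrane traffic stood out among coding features. The 25 lowest had log2 ratios from -2.58 to -1.91, with a median of -2.06, and none had fewer than 100 counts in the input. FTL, the ferritin light chain, had 11524 counts (534 CPM) in the input and 4045 counts (89.4 CPM) in the IP, 5.97 times lower (log2 -2.58, -2.63 to -2.53). FTH1, the ferritin heavy chain, had 53919 counts (2500 CPM) and 23106 counts (511 CPM), log2 -2.29. Its gene overlaps BEST1 (46571 and 19640 counts, log2 -2.31), a chloride channel of the retina, so their reads cannot be told apart. SLC40A1, ferroportin, the iron exporter of the cell, had 2042 and 1075 counts, log2 -1.99. IGF2, a fetal growth factor made by many liver tumours, had 153960 counts (7138 CPM) in the input and 66348 counts (1467 CPM) in the IP, log2 -2.28 (-2.30 to -2.27), and its gene overlaps those of IGF2-AS and INS-IGF2.

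Membrane and signalling genes followed these. GOLGA4, a golgin of the trans-Golgi, had 37964 counts (1760 CPM) in the input and 17524 counts (387 CPM) in the IP, log2 -2.18 (-2.21 to -2.16). ARHGAP5, a GTPase-activating protein, had 74341 counts (3446 CPM) and 41263 counts (912 CPM), log2 -1.92. SVIP, a small inhibitor of protein degradation from the endoplasmic reticulum, had 1909 and 680 counts, log2 -2.56. These 3 genes were lower in the IP of the other culture too, at -1.77, -1.43 and -1.88. EIF4EBP2, which holds the cap-binding factor EIF4E inactive, had 4469 and 2422 counts, log2 -1.95. SLC16A7, a monocarboxylate transporter, had 3236 and 1745 counts, log2 -1.96. MAL2, a protein of apical transport in hepatocytes, had 1345 and 677 counts, log2 -2.06. CXADR, the receptor of coxsackie and adenoviruses at cell junctions, stood at -2.04 and VMA21, an assembly factor of the proton pump, also at -2.06.

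Nuclear proteins were found at this end as well. ZNF91, a zinc finger repressor of retroelements, had 3023 counts (140 CPM) in the input and 1256 counts (27.8 CPM) in the IP, log2 -2.33. USF3, a transcription factor of the helix-loop-helix type, stood at -2.34 on 2821 and 1170 counts, and ANKRD12, an ankyrin repeat cofactor, at -2.00 on 3142 and 1652 counts. ESF1, a nucleolar factor, had 5203 and 2674 counts, log2 -2.03. ESF1 was at -0.43 in shRBM39 cells and was the 1 gene of the 25 not called lower there. WDR74, a ribosome biogenesis factor, stood at -2.55, but its gene overlaps RNU2-2P, a copy of the U2 spliceosomal RNA that was also called lower, so their reads cannot be told apart. MCMDC2 at -1.97 likewise overlaps SNHG6, a snoRNA host gene at -2.02.

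Beyond genes ranked by ratio, those that took most of the reads show how the bulk of each library was spent. In the input the first 3 were RN7SK, RN7SL1 and RN7SL2, the RNAs of the 7SK particle and of the signal recognition particle, which together held 6.74% of the counts. In the IP they held 0.203%. RN7SK went from 583158 to 15510 counts, 78.8 times lower after scaling, and RN7SL1 from 423908 to 37003 counts, 24.0 times lower. The IP counts were led by NPM1, the nucleolar protein nucleophosmin, with 64732 counts in the input and 228944 in the IP (log2 0.75), followed by GOLGB1. ACTB (log2 0.78), HNRNPA1 (0.11), PTMA (-0.34), RPL5 (0.20), PTMS (1.09), EEF2 (0.88), RPL26 (-0.23) and HNRNPA2B1 (0.38) completed the 10 features with most IP counts. Of these 10, GOLGB1 and PTMS, the acidic nuclear protein parathymosin, were past 2-fold. YBX1, an abundant RNA-binding protein, was among the first 10 of the input and lower in the IP, with 85102 and 50858 counts (log2 -1.81, -1.83 to -1.79).

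Named gene lists were then described by their counts of called members, to be read against 7.70% called higher and 11.3% called lower over all features, and by their medians, to be read against -0.01. Over coding features alone the shares were 8.21% and 7.16%, and the median was 0.07. Among mRNAs of mitochondrial proteins, the lists from the nuclear genome centred within 2-fold of input, and the mRNAs of the mitochondrial genome, given below, lay far lower. Of 38 features with the names of nuclear-encoded complex I subunits, 4 were called higher and 0 lower, with a median of -0.02. Besides NDUFS1 these included NDUFV1, which binds NADH (4466 and 21282 counts, log2 1.18), and NDUFA4L2 (33 and 148 counts, 1.08). NDUFA4L2 is now named COXFA4L2 in RefSeq, after cytochrome c oxidase and not complex I, and its gene overlaps SHMT2. Of 44 nuclear subunits of complexes II to V, 6 were called higher and 0 lower (median -0.02), led by ATP5B and ATP5A1, subunits of ATP synthase, both at 1.26. The medians of both lists turn to 0.06 and 0.05 under total count scaling. In shRBM39 cells 1 of the 38 and 0 of the 44 were called higher. Mitochondrial ribosomal proteins had a median of 0.39 over 78 members, of which MRPL28 (1.19) alone was called. Among 41 mitochondrial carriers, 5 were called higher, SLC25A1, the citrate carrier, at 1.26 among them, and 2 lower.

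All 13 mitochondrially encoded mRNAs were called lower, with log2 ratios from -5.62 (MT-CO3) to -3.71 (MT-ND3) and a median of -4.83. MT-CO1 went from 245748 to 14820 counts and MT-ND5 from 56933 to 7695. All 21 mitochondrial tRNAs compared were called lower too, from -5.95 (MT-TD) to -2.13 (MT-TS2), with a median of -3.75. The ribosomal RNAs of the same genome did not follow: MT-RNR1 had 1572 and 3706 counts (log2 0.17), and MT-RNR2 had 16591 and 57791 counts (log2 0.73). The mitochondrially encoded features therefore did not move as a block.

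Translation genes were mixed. Of 84 cytosolic ribosomal protein features, 7 were called lower and 1 higher, with a median of -0.15. The stalk proteins were among the lower ones, with RPLP1 at 22928 and 14545 counts (log2 -1.72) and RPLP0 at 35243 and 25933 counts (-1.51), and RPS12, whose gene holds SNORD101 at a like ratio, stood at -1.56. FAU, a ubiquitin-like fusion to a small subunit protein, was the 1 called higher (1.14). Of 63 initiation factor features 3 were called higher and 5 lower (median 0.12), with EIF4A1, the cap helicase, at 1.15 and EIF5B, which joins the subunits, at -1.31. EIF4A1 overlaps the read-through SENP3-EIF4A1. Aminoacyl-tRNA synthetases, which charge tRNAs, lay higher, with a median of 0.62 over 37 features, and of 0.40 in shRBM39 cells. There 0 were called either way, while in shControl cells 10 were called higher and 0 lower. Of these VARS, for valine, had 1197 and 7119 counts (log2 1.50), IARS, for isoleucine, 4352 and 20856 counts (1.19), and the mitochondrial LARS2, for leucine, 357 and 1830 counts (1.29).

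Protein folding and turnover genes leaned to positive ratios with few calls. Proteasome subunits had a median of 0.58 over 37 members, with PSMD2 (8282 and 38594 counts, log2 1.15) and PSMA5 (1451 and 6562, 1.11) called higher. The immunoproteasome subunit PSMB9, on 12 and 6 counts, was the 1 called lower. All 9 members of the CCT chaperonin list lay between -0.12 (CCT6B) and 1.17 (CCT5), with CCT5 alone called. Of 81 cullin, F-box and DCAF features 7 were called higher and 6 lower, with FBXO25 at -1.74 and RBX1, the RING subunit of cullin ligases, at 1.19. Ubiquitin-specific proteases split likewise, with USP5 at 1.44 and USP12 at -1.54 among 4 higher and 2 lower of 45.

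Splicing factor mRNAs, the group nearest to RBM39 in function, were mostly within 2-fold of input. Of 14 SR proteins and their TRA2 relatives 1 was called higher, SRSF6 (5402 and 24620 counts, log2 1.12), and the list ranged from -0.81 (SRSF12) to that value with a median of 0.37. Proteins of the U2 particle and U2AF had a median of 0.47 over 15 members. SF3B1 stood at 1.84 and U2AF2 at 1.08 (3596 and 15917 counts), while SF3B2 (0.79), SF3A2 (0.78), SF3A1 (0.65) and SF3B3 (0.42) were not called. U2AF1 at -1.07 rests on 18 counts in each library, and its call is lost with total count scaling (-0.99). Sm and LSm proteins, which form rings on U RNAs, lay below 0 with a median of -0.35 over 18 members, 2 called lower, LSM5 (-1.24) and LSM12 (-1.04). The call of LSM12 is lost with total count scaling (-0.96). Of 35 numbered RBM features RBM39 and RBM42 (1.18) were called higher and RBM44 (-2.41, on 16 and 6 counts) lower. The pseudogene RBM8B (-1.02) was also called lower, a call lost with total count scaling (-0.94). HNRNPL, at 1877 and 9112 counts (1.21), was the 1 hnRNP feature called higher of 44. The 5 called lower were pseudogenes of that family, among them HNRNPH1P1 (27 and 4 counts).

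The Argonaute and SWI/SNF lists show how far AGO2 and SMARCC2 stood from their relatives. Of 12 genes of microRNA processing and silencing, AGO2 alone was called higher, and AGO4 (591 and 548 counts, log2 -1.18) alone was called lower. AGO1 (-0.21), AGO3 (-0.74), DICER1 (-0.46), TNRC6A (-0.12) and DROSHA (0.23) were not called, and the list median was -0.07, or 0.00 with total counts. Of 15 SWI/SNF and related ATPase genes, SMARCC2, SMARCA4, SMARCD2 (1.17) and SMARCA2 (1.03) were called higher. SMARCC1, the paralog of SMARCC2, had 9319 and 22738 counts, a log2 ratio of 0.22, and ARID1A (0.82), SMARCB1 (0.93) and PBRM1 (-0.35) were not called. The call of SMARCA2 is lost under upper quartile scaling (0.97).

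**Figure D3:**
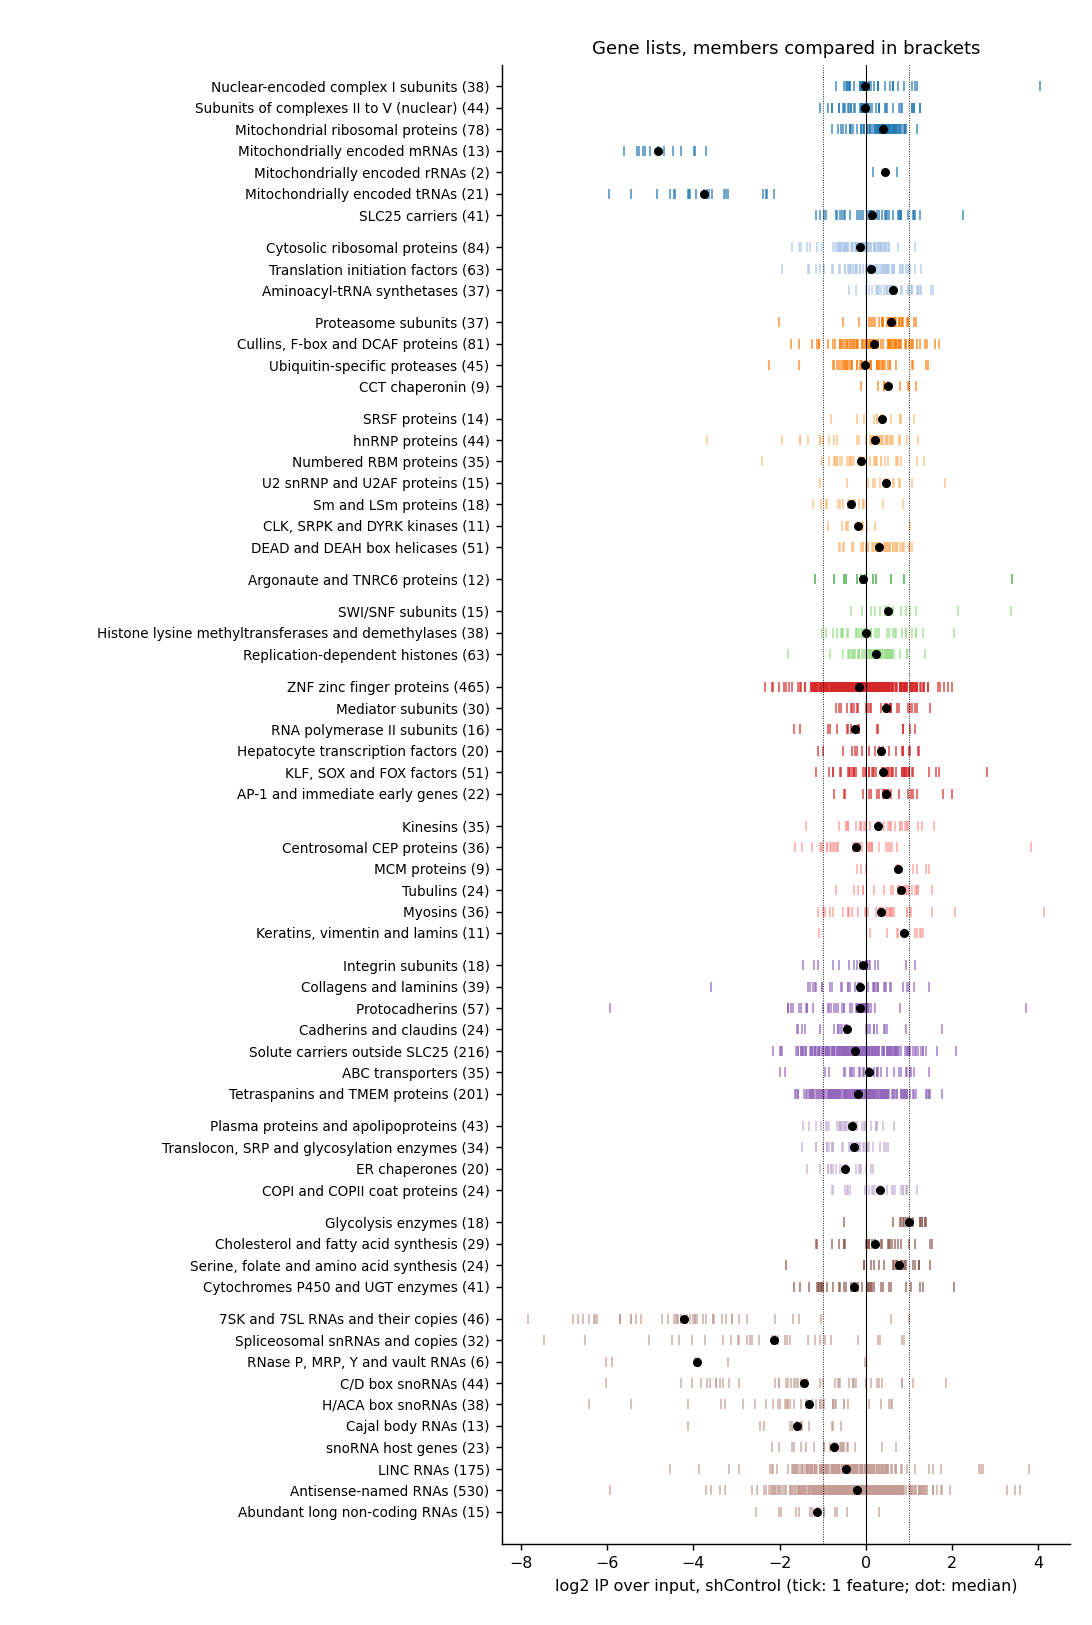
Log2 ratio of IP over input in shControl cells for every compared member (ticks) of each gene list, with the list median as a black dot, dotted lines at 2-fold, and the number of members in brackets. Coding lists other than glycolysis, whose median lies on the upper 2-fold line, centre within 2-fold of equality, with single members far out such as NDUFS1 and CEP152, while the lists of mitochondrially encoded mRNAs and tRNAs and of 7SK and 7SL RNAs lie far to the left.

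Chromatin and transcription genes otherwise held a few called members each. Of 38 histone lysine methyltransferases and demethylases 5 were called higher, among them KDM4B, KMT5C (1.32) and KDM4A (1.17, overlapping KDM4A-AS1), and KDM7A (-1.03) lower. Mediator, the coactivator complex of RNA polymerase II, had 5 of 30 subunits called higher and 0 lower, with MED16 (300 and 1770 counts) at 1.49 and a median of 0.47. The polymerase itself had 2 subunits of 16 called each way, with POLR2A, its largest, at 1.13 and POLR2J at -1.53. Hepatocyte transcription factors numbered 20, of which 4 were called higher, CEBPB (1.24, overlapping CEBPB-AS1), GATA6 (1.02) and GATA4 (1.01) among them, and 2 lower, ONECUT2 (-1.11) and PPARA (-1.0). AP-1 and immediate early genes had 5 of 22 called higher and 0 lower. With JUND these were FOSL1 (12 and 90 counts, 1.79), IER2 (1.19), KLF2 (1.10) and NR4A1 (1.05). The 465 ZNF zinc finger features had a median of -0.17, with 26 called higher, ZNF444 (809 and 5954 counts) at 1.81 among them, and 37 called lower. Of 63 replication-dependent histone features HIST3H2A (2330 and 12694 counts, log2 1.38) was called higher and HIST1H4J, on 12 and 7 counts, lower.

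Genes of the cytoskeleton and of cell division had more members called higher than lower. Of the 151 features of these lists, 26 were called higher (17.2%, against 7.70% of all features and 8.21% of coding ones). Called lower were 9 (5.96%, against 11.3% and 7.16%), and the median was 0.32. The shRBM39 cells had 18 called higher and 0 lower, and 11 of these 18 were myosins. In shControl cells 5 of the 36 myosins were called higher and 1 lower, with a median of 0.35 (0.57 in shRBM39 cells). Tubulins had a median of 0.83 over 24 features, 8 of them called higher, 6 coding genes and the pseudogenes TUBAP2 and TUBBP1, with TUBA1B at 11804 and 56190 counts (log2 1.18) and TUBB4B, which overlaps FAM166A, at 6157 and 30062 (1.22). Among 11 intermediate filament genes, LMNA, the A-type lamin, stood at 1.34 (899 and 4764 counts), KRT19 at 1.28, KRT8 at 1.19 and KRT18 at 1.13. KRT8 and KRT18 overlap in the annotation, and VIM (0.74) was not called. In shRBM39 cells 0 of these 11 genes and 2 of the 24 tubulins were called higher. The MCM helicase genes, which license replication, had 4 of 9 called higher, MCM4 (2971 and 17128 counts, log2 1.46), MCM7 (1.39), MCM3 (1.19) and MCM6 (1.10). In shRBM39 cells 1 of the 9 was called higher. Kinesins had 3 of 35 called higher, with KIF20A, a motor of cytokinesis, at 1.59. Centrosomal CEP genes went against this, with a median of -0.23 over 36 members and 6 called lower, CEP120 (1326 and 992 counts, log2 -1.49) and CEP290 (1950 and 1720 counts, -1.25) among them. CEP152 was the 1 CEP gene called higher. MYO7B, a myosin of microvilli, had 0 counts in the input and 18 in the IP, at least 2.86-fold higher against the limit of 3 counts. With 4 and 24 counts in the shRBM39 input and IP, MYO7B passed the filter through the IP libraries alone.

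Metabolic enzymes had calls on both sides. Of 111 features, 24 were called higher (21.6%, against 7.70% of all features and 8.21% of coding ones). Called lower were 13 (11.7%, against 11.3% and 7.16%), and the median was 0.35. There were 2 called higher in shRBM39 cells, with a median of 0.13. Glycolysis had a median of 1.0 over 18 enzymes, 10 of them called higher and 0 lower. ALDOA, an aldolase, had 3981 counts (185 CPM) in the input and 22092 counts (488 CPM) in the IP (log2 1.40, 1.36 to 1.45), PFKL, the liver phosphofructokinase, 917 and 4947 counts (1.36), and PKM, a pyruvate kinase, 8079 and 41967 counts (1.31). GAPDH (0.79), TPI1 (0.86) and LDHA (0.89) did not reach 2-fold. Some calls lay close to the threshold, with PGK1 at 1.01 and GPI at 1.08. The glycolysis median was 0.56 in shRBM39 cells, and 0 of the 18 enzymes were called.

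Synthesis pathways were split by enzyme. In serine, folate and amino acid synthesis 6 of 24 enzymes were called higher, with PHGDH, the first enzyme of serine synthesis, at 1740 and 10234 counts (log2 1.49), and MTHFD2L was called lower (318 and 183 counts, -1.86). In cholesterol and fatty acid synthesis 4 of 29 were called higher, with MVD (1.54), FASN, fatty acid synthase, at 4782 and 28319 counts (1.50), the regulator SREBF2 (1.15) and ACLY (1.01). MSMO1 (-1.16) and SC5D (-1.12), sterol oxidases anchored in the endoplasmic reticulum, were called lower. Cytochromes P450 and UGT enzymes had 4 of 41 called higher and 10 lower. Several of the latter were UGT1A isoforms, which share exons, so their counts are not independent.

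Secretory pathway genes lay mostly below 0. Of the 121 features 85 had a ratio below 0, and the median was -0.30. There were 8 called lower (6.61%, against 11.3% of all features and 7.16% of coding ones) and 1 higher. In the shRBM39 cells the median was -0.72 and 40 were called lower, 23 of them plasma proteins. Endoplasmic reticulum chaperones had the lowest median of these lists, -0.48 over 20 genes, with HSP90B1 (46101 and 37208 counts, log2 -1.38) and DNAJC10 (-1.06) called lower and HSPA5 (-0.48) and CALR (-0.10) not called. DNAJC10, which overlaps PDE1A, loses its call with total counts (-0.98). Among 43 plasma proteins APOB, the core protein of liver lipoproteins, had 87168 counts (4041 CPM) in the input and 66583 counts (1472 CPM) in the IP, log2 -1.46, and PLG (-1.15) and CP (-1.03) were also called lower. APOA1 (0.24) and APOE (0.25) lay above 0. SPCS3, a signal peptidase subunit, stood at -1.47 (1290 and 976 counts), and SEC24C, a coat protein of vesicles leaving the endoplasmic reticulum, at 1.20 was the 1 called higher.

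Cell surface and matrix genes had a median of -0.17 over 590 features. Of these, 26 were called higher (4.41%, against 7.70% of all features and 8.21% of coding ones). Called lower were 79 (13.4%, against 11.3% and 7.16%). Of 18 integrin subunits ITGB1, the common beta chain (8947 and 6789 counts, log2 -1.47), ITGA1 (-1.20) and ITGA2 (-1.10) were called lower, and ITGAM (10 and 48 counts, 1.14) was called higher. Collagens and laminins had 8 of 39 called lower, with LAMB1 at 5653 and 4671 counts (-1.34), and LAMA5, at 1813 and 7633 counts (1.01), was among 2 called higher. Solute carriers outside the mitochondrial family had 30 of 216 called lower and 9 higher. SLC7A11, the cystine importer, was among the lower ones, with 1897 and 1390 counts (-1.52). Protocadherins and cadherins with claudins had 8 of 57 and 5 of 24 called lower, PCDHB14 (126 and 103 counts, log2 -1.36) and CDH19 (136 and 94 counts, -1.60) among them. Among the 8, PCDHA9 and PCDHA10 overlap each other and further PCDHA genes, some at a like ratio, so their counts are not independent. TMEM123 (2830 and 1995 counts, log2 -1.57) belonged to 23 of 201 tetraspanin and TMEM features called lower.

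Among non-coding RNAs of the classical small particles nearly all members were lower in the IP. Of 46 features for 7SK and 7SL and their copies, 44 were called lower with a median of -4.22, or -3.86 with the 10 members at 0 set to their limit. RN7SL16P, with 54 counts in the input and 0 in the IP, was at least 37.7-fold lower. Reads of RN7SK and RN7SL1 can be split over their many near-identical copies, so these copies are not independent observations. RPPH1, the RNA of RNase P, had 56310 counts (2611 CPM) in the input and 1982 counts (43.8 CPM) in the IP. Its log2 ratio was -5.90 (-5.96 to -5.83). RMRP, of RNase MRP, had 2788 and 639 counts, log2 -3.19, but stood at -0.51 and was not called in shRBM39 cells.

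Spliceosomal U RNAs, the RNA parts of the splicing machinery, were also mostly lower. Of 32 such features and copies, 23 were called lower and 0 higher, with a median of -2.14. RNU4-1 had 135 and 12 counts (log2 -4.51), RNU5A-1 28 and 4 counts (-3.73) and the minor-spliceosome RNU6ATAC 258 and 16 counts (-5.04). Box C/D snoRNAs, which guide RNA methylation, had 23 of 44 called lower (median -1.43), and box H/ACA snoRNAs, which guide pseudouridine formation, 23 of 38 (median -1.32). Cajal body RNAs had 9 of 13 called lower, with SCARNA7 at -4.12. In shRBM39 cells 8 of the 44 C/D, 15 of the 38 H/ACA and 2 of the 13 Cajal body features were called lower. The medians there were -0.31, -0.81 and -0.11, and 2 C/D and 1 H/ACA features were called higher. The median shControl input count was 19.5 in both snoRNA lists, so many of these ratios rest on few counts. SNORD3A, the U3 RNA of ribosome assembly, stood at -3.68 on 235 and 38 counts.

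Long non-coding RNAs showed a weaker shift. Of 15 listed as abundant, 9 were called lower and 0 higher, with a median of -1.14. TERC and SCARNA2, both called lower, are in this list but were counted as small non-coding RNAs in the classes above. TERC, the template RNA of telomerase, had 3720 and 1982 counts (log2 -1.98), OIP5-AS1 2290 and 1192 counts (-2.01), NORAD 20150 and 19168 counts (-1.14) and NEAT1, the scaffold of paraspeckles, 3810 and 3780 counts (-1.08). MALAT1, at 81404 and 86490 counts, stood just inside 2-fold at -0.98. Of 23 snoRNA host genes 7 were called lower, SNHG6 (8909 and 4603 counts) at -2.02 among them, and of 175 LINC RNAs 44 were called lower and 5 higher. LINC01419 had 1667 and 451 counts, log2 -2.95. Antisense-named RNAs numbered 530, with 24 called higher and 85 lower and a median of -0.20. At the high end of non-coding RNAs with at least 200 summed counts, H1FX-AS1 (1.35), PTOV1-AS2 (1.39), GLYCTK-AS1 (1.38) and CTBP1-AS (1.06) each overlapped a coding gene with a like ratio, so without a known strand setting their reads cannot be told from those of the sense gene. PSMG3-AS1 (78 and 421 counts, log2 1.36) and RNA5SP267, a copy of the 5S ribosomal RNA (32 and 216 counts, 1.67), overlapped no compared gene that matched RefSeq.

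MicroRNA loci were compared as hairpins, and 47 passed the filter, with a median of 0.07, 5 called higher and 7 lower. The hairpins below, from RefSeq on GRCh38.p14, are shown since the read evidence differs between them. In each the seed of an annotated mature arm (bases 2 to 8) is in capitals, and no seed recurs among the 4.
MIR122 (chr18:58451074-58451158, plus strand): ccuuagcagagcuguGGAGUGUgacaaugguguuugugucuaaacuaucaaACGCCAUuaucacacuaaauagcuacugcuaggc
MIR6728 (chr1:8866502-8866590, minus strand): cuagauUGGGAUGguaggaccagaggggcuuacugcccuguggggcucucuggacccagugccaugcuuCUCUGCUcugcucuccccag
MIR1291 (chr12:48654444-48654530, minus strand): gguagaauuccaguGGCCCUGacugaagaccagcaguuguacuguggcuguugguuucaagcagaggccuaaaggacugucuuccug
MIR4521 (chr17:8186945-8187004, plus strand): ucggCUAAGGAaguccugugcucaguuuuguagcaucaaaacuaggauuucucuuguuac

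MIR122, the main microRNA of hepatocytes, overlaps no other compared gene that matched RefSeq. It had 732 counts (33.9 CPM) in the input and 2734 counts (60.5 CPM) in the IP. Its log2 ratio of 0.83 (0.71 to 0.95) was not called. MIR6728 lies inside ENO1, a glycolytic enolase at 1.25, and had 476 and 2296 counts, log2 1.20, so its reads cannot be told from those of ENO1. MIR1291 shares its place with the snoRNA SNORA2C, which had 25 and 14 counts (log2 -1.88), and stood at -1.76 on 23 and 14 counts. MIR4521 overlaps no compared gene that matched RefSeq and had 42 counts in the input and 0 in the IP, at least 29.4-fold lower. The clone-named feature CTC-261N6.2 had the same counts. Features without a RefSeq match were not checked for overlap. Counts at a hairpin do not separate the mature microRNA from its precursor.

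Across the coding genes the ratio varied with the span of the gene. Coding genes were put in 10 groups of equal size by annotated span. The shortest group (276 to 5318 bases) had a median log2 ratio of 0.25, with 11.6% called higher and 3.61% lower. The longest group (163659 to 2473620 bases) had a median of -0.18, with 2.73% called higher and 10.7% lower. Spearman's correlation across the 13555 genes was -0.23, as a description of features that share the same 2 libraries. The shRBM39 pair of libraries gave the same value, -0.23. GC content of the 250 bases before the start of the gene was tied to the ratio more loosely (correlation 0.11 over 11124 genes), and the input level hardly (correlation -0.06). Among genes with GC at or under the median, the shorter ones had a median ratio of 0.15 and the longer ones -0.11. Among those above it the medians were 0.33 and -0.05.

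Chromosomes differed in the same sense. Coding genes of chromosomes 22 (median 0.51), 16 (0.41), 19 (0.37) and 17 (0.30) had the highest ratios, and those of chromosomes 4 (-0.22), 13 (-0.19), 18 (-0.15) and 5 (-0.14) the lowest. On chromosome 19, 18.0% of 979 coding genes were called higher, and on chromosome 4, 2.56% of 508. Median gene span was 16509 bases on chromosome 19 and 54485.5 bases on chromosome 4, so span moves with these chromosome medians, and its part in them was not tested. Of the 25 highest coding genes 6 are on chromosome 19, SMARCA4, SAMD1, KDM4B, JUND, ZNF444 and MEX3D. Spearman's correlation of the chromosome medians between the 2 cultures was 0.93 over 23 chromosomes.

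**Figure D4:**
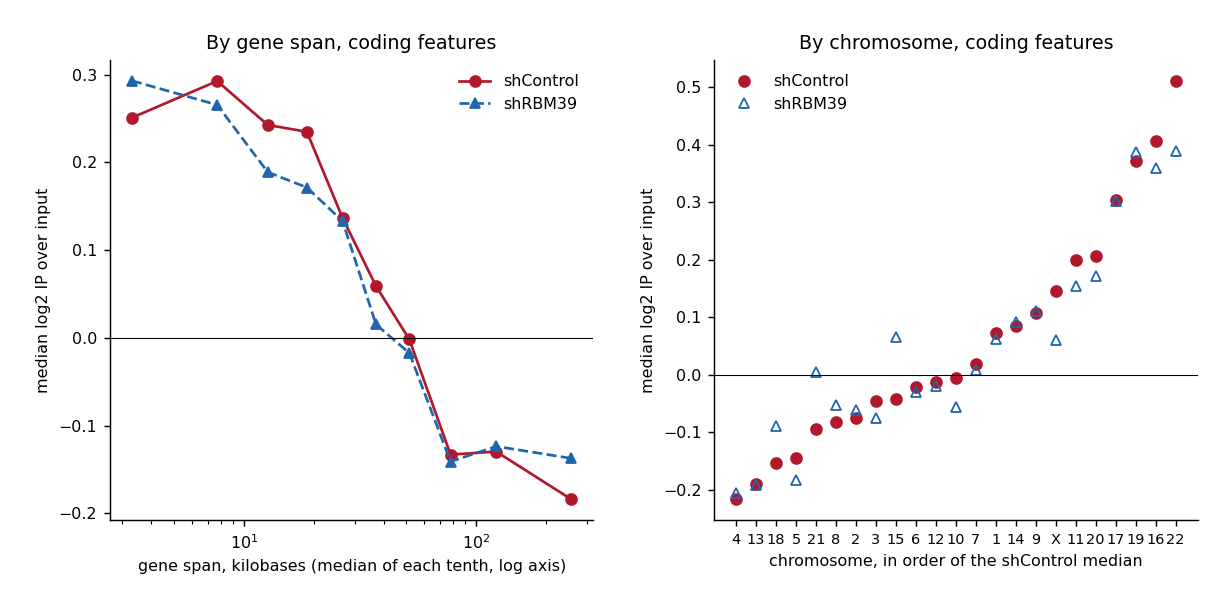
Left, median log2 ratio of IP over input of coding features in 10 groups of annotated gene span (log axis, kilobases), and right, the median by chromosome, with circles for shControl and triangles for shRBM39 cells. In shControl cells the median goes from 0.25 in the shortest group to -0.18 in the longest, and from -0.22 on chromosome 4 to 0.51 on chromosome 22, and the shRBM39 points run in a like order.

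The shRBM39 cells give the only other measurement of the same kind, from other libraries, in which RBM39 mRNA was little lower in the input and higher in the IP. There 5.29% of features were called higher and 9.00% lower. Of the 1479 features called higher in shControl cells, 436 were called higher there (29.5% of the shControl list and 42.9% of the shRBM39 list), 7 were called the other way, and 1375 had the same sign. Of the 2173 called lower, 979 were called lower there (45.1% and 56.6% of the respective lists), 23 were called the other way and 1942 had the same sign. Across features the log2 ratios of the cultures had a Pearson r of 0.64 over all 19210 and of 0.83 over the 12895 with at least 200 summed counts. Among the 25 highest coding genes 24 were called higher in both cultures, with a median of 2.08 in shRBM39 cells, and among the 25 lowest 24 were called lower, with a median of -1.61. ATP13A5, among the 24 higher ones, passed the filter only through the IP libraries, so its calls are not independent of the filter.

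The size of the ratio differed for some of these genes, with no test of the difference. CEP152, SF3B1 and AKAP9 had higher ratios in the shRBM39 cells (4.53, 3.03 and 2.97 against 3.83, 1.84 and 2.02). ASB2 and RGMA had lower ones there (1.65 and 2.25 against 4.47 and 4.06), with 30 and 182 counts for ASB2 and 64 and 584 for RGMA. RN7SK was at -3.42 there and RPPH1 at -3.50, against -6.30 and -5.90. MT-CO3 stood at -4.09 there against -5.62. These 3 RNAs thus lay nearer to their input level in the shRBM39 libraries.

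**Figure D5:**
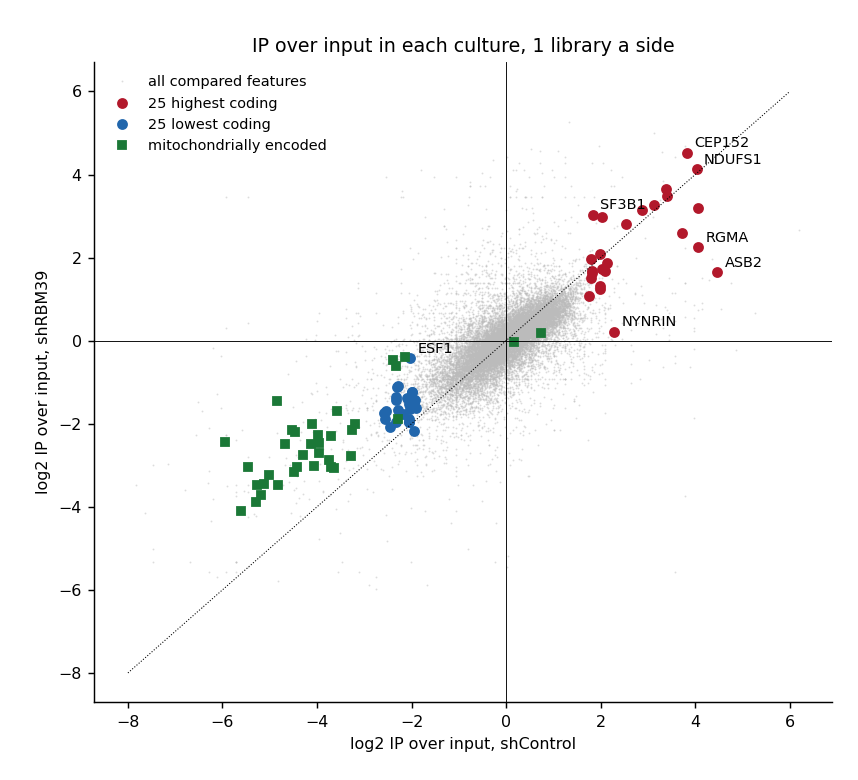
Log2 ratio of IP over input in shRBM39 cells (vertical axis) against that in shControl cells (horizontal axis), 1 point per compared feature, with the line of equality dotted. Of the 25 highest coding genes, ASB2, RGMA and NYNRIN lie well below the line and SF3B1 above it, and most mitochondrially encoded RNAs lie above it.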

How the data were processed

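RNA of 4 RIP-seq libraries was analysed from the deposited gene table, which holds unnormalized counts named by symbol. The tools named per the submitters' processing notes are StringTie 1.3.4d, HISAT2 2.0.4 and cutadapt 1.9, with hg38 as the build. Their roles, the program that counted reads, its treatment of strand and the gene annotation were not given in the sources used here. From 71.4% to 75.6% of counts of 3 to 6 were even; if mates were counted singly, counting intervals are too narrow. The table has 56303 features and 0 columns of other samples; 13 features have date-like numbers for names, hold at most 0.0335% of a library and are not named.

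The filter kept features that reached 10 counts in 2 or more libraries. TMM factors from edgeR 4.0.16 in R 4.3.3 were 1.03 and 1.09 for input and IP of shControl cells, and 0.979 and 0.904 for those of shRBM39 cells. CPM values, computed here from the deposited counts, use library totals times these factors. Log2 ratios had 0.5 added to each count, and exact conditional (Clopper-Pearson) 95% intervals came from Python 3.11.15 with scipy 1.17.1. Intervals cover counting error only, since the reads carry no molecular identifiers and may repeat a molecule. A ratio to a count of 0 is given against 3 counts per library. No test was possible with 1 library a side; the step was tested on simulated counts.

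Of the compared features 14668 matched a current RefSeq symbol and 873 an older one (80.9% together). Classes, spans, overlaps and coordinates are those of RefSeq on GRCh38.p14. Ratios of overlapping genes are called like where they differ by under 0.5 on the log2 scale. The 3669 compared features with no match were not checked for overlap. The named genes are, among features with at least 200 summed counts in the shControl libraries ranked by the interval bound nearer to 0, the 25 highest and 25 lowest coding features and the 10 highest and lowest of the others; RBM39 and RFX1; the called members of each list with the largest ratios, at most 4 a list (2 members where none was called); and the 10 features with most counts in input and in IP. Further list members are named to show the spread of a list, after their values were seen. Some list members are not reported here. The members and lists were chosen with earlier results of these data known. Alternatives were scaling to total counts, by the median of ratios (DESeq2 1.42.0), by the upper quartile and by TMM without mitochondrial, 7SK and 7SL features, other filters, 5 added counts, counts divided by 2 for the interval, and a 4-fold threshold.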

Additional observations from a re-analysis of the deposited data

Results flagged for a closer look

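Several features called in shControl cells had a ratio of the opposite sign in the shRBM39 cells; the differences were not tested, and each group had 1 library. Among those with more counts, LARS2 was at log2 1.29 in shControl and -0.11 in shRBM39 cells, and NDUFA4L2, which overlaps SHMT2, at 1.08 and -0.20. TMEM185A was at 1.76 and -0.067, on 8 and 60 counts in the shControl input and IP, EIF4EBP3 at 1.28 and -0.088 on 11 and 58 counts, and KRT15 at 1.25 and -0.13 on 6 and 32 counts.

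Others were lower in the shControl IP and above input in shRBM39 cells, all on 30 counts or fewer in either shControl library. PSMB9 was at -2.01 and 0.13, ZNF804A at -2.01 and 0.76, COL4A4 at -1.30 and 0.66, SNORD21 at -4.03 and 0.14, and SCARNA5 at -2.37 and 0.015. The pseudogenes HNRNPA1P52 and HNRNPA1P53 were at -1.95 and 0.60 and at -1.53 and 0.17. HIST1H4J had 12 and 7 counts in shControl cells (-1.81) and 0 and 16 in shRBM39 cells, where the fitted value of 4.12 depends on the added count. PCDH15 had 14 and 0 counts in shControl cells, at least 9.78-fold lower, and 0 and 10 in shRBM39 cells (fitted value 3.46). The median of the 35 numbered RBM features was -0.11 in shControl and 0.13 in shRBM39 cells.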

How the results depend on the processing

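The features higher in the shControl IP numbered 1479 and the features lower in the shControl IP 2173. With a 4-fold threshold they were 138 and 515, and with at least 50 counts in 2 libraries those called lower were 1204, since fewer features were compared (14780). Over the alternatives that kept the 2-fold threshold the counts ran from 1052 to 2088 higher and from 1204 to 3150 lower (1776 with counts divided by 2). The log2 ratio of RBM39, 1.36, was 1.44 with total counts and 1.305 with upper quartile scaling, and moved less under the other scalings. The share of called features that were higher was 40.5%, 50.2% with total counts, 34.3% with upper quartile scaling and 34.2% with 5 added counts. Of 1410 values of named genes under alternatives, 1284 stayed within their counting interval, 126 moved beyond it and 0 changed sign. Of 272 called genes named by the rule above, 21 lost the call under a scaling or added count. Among them were CP (-0.95 with total counts), GATA6 (0.96 with the upper quartile) and, with 5 added counts, ITGAM (0.75), KRT15 (0.68), EIF4EBP3 (0.91), NDUFA4L2 (0.94) and KLF2 (0.99). Genes named outside that rule were not counted here. The median ratio shifts by 0.08 with total counts and by -0.05 with the upper quartile. Calls as close to 2-fold as those of GATA4, ACLY, LAMA5, PGK1, PPARA, KDM7A and GOLGA5 are therefore not stable to scaling. Medians of 6 lists near 0 changed sign, for example integrin subunits (-0.07, 0.01 with total counts). No paired analysis was possible because each group has 1 library. No leave-one-out was possible for the same reason. Depth limits genes with few input counts, and with 1 library a side no spread between cultures can be given.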

Other observations

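A pair of gene groups was drawn up after the values had been seen and is given as values only. Of 7 mRNAs known to carry iron-responsive elements, FTL (log2 -2.58), FTH1 (-2.29, overlapping BEST1) and SLC40A1 (-1.99) were called lower in the shControl IP and none was called higher. TFRC, the transferrin receptor, had 184 CPM in the input and 114 CPM in the IP (-0.69), and the iron importer SLC11A2 stood at -0.90. EPAS1 stood at 0.10, and the median of the 7 was -0.90. In the shRBM39 cells FTL was at -1.73, FTH1 at -1.09, SLC40A1 at -1.25 and TFRC at -1.45.

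Golgins and related scaffolds of the Golgi and centrosome lay at both ends of the range. Of 13 compared, GOLGB1 (2.87) and AKAP9 (2.02) were called higher. GOLGA4 (-2.18), TRIP11 (-1.20), GCC2 (-1.11) and GOLGA5 (-1.02) were called lower. GOLGA2 (0.20), GOLGA3 (0.17), GOLGA1 (0.02) and PCNT (0.04) stayed near input, and the median was 0.07. In the shRBM39 cells GOLGB1 was at 3.14, AKAP9 at 2.97, GOLGA4 at -1.77 and TRIP11 at -1.15.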
